A study of Mus musculus with 2 samples.

Results

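The cornified envelope is the cross-linked protein shell that replaces the membrane of a dying keratinocyte, and desmosomes are the junctions that rivet one keratinocyte to the next. This account follows 39 genes of these structures, of the epidermal barrier and of the hair follicle, keratins excluded, through RNA sequencing of mouse dorsal root ganglia. The genes were listed by symbol, with earlier results of these data known, and 38 of them had a row among the 23282 rows of each count file. Flg had no row, so only its promoter was looked at here. Dorsal root ganglia hold the cell bodies of sensory neurons together with their glia, and neither cell type builds a cornified envelope.

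Ganglia of wild-type (WT) mice were compared between mice given acetone, ether and water (AEW), which dries the skin, and mice given water alone. AEW treatment lasted 5 days and tissue was taken on day 6. Each group consisted of 1 library, read here as 1 pool of RNA from 6 mice, so the spread between animals is unknown and no difference below has a replicate check or a p-value. The labels used here give no strain, age or sex. The labels name neurons as the cell type, and all 22 pan-neuronal markers were measured. Schwann cell markers were present as well and took 1.98% of the control counts. The AEW library was deeper than the control library, 14376228 against 9333882 counts, and a count of 0 allows up to 3 counts, or 0.331 CPM (counts per 1000000 scaled counts) for the control and 0.202 CPM for AEW.

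In stratified epithelium, keratinocytes leave the basal layer, add desmosomes as they move up, and in the granular layer lay down involucrin, loricrin and other envelope proteins that transglutaminases weld together. Filaggrin-type proteins bundle the keratin inside, lipoxygenases prepare lipids that are bound to the outside, and proteases later cut corneodesmosomes so that the surface is shed. The inner root sheath of the hair follicle hardens by a related route built on trichohyalin. Several of the genes are clustered in the genome, and promoters of envelope genes are textbook targets of the AP-1 family of transcription factors.

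The bases just before the transcription start are shown for 4 of the genes, picked by name. The first 3 share a pattern, an AP-1 match and a TATA match, that the last does not carry, nor do most other members with a promoter window. The sequences are RefSeq's on GRCm38.p6 and cover 250 bases upstream of the start, on the strand of the gene. Lor lies on the minus strand (chr3:92083143-92083392), Ivl on the minus strand (chr3:92573736-92573985), Krtdap on the plus strand (chr7:30787655-30787904) and Tchh on the plus strand (chr3:93442080-93442329). Capitals mark matches on either strand to the AP-1 motif TGANTCA or to the TATA box TATAAA.
Lor: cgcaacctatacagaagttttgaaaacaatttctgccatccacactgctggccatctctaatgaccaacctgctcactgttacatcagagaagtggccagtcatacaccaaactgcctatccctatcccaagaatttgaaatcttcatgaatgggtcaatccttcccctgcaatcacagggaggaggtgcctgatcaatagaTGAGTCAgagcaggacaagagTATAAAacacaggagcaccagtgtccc
Ivl: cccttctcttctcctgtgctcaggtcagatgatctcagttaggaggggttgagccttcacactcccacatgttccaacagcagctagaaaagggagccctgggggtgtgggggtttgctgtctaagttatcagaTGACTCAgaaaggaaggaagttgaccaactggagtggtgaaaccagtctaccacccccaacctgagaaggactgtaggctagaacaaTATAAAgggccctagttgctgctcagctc
Krtdap: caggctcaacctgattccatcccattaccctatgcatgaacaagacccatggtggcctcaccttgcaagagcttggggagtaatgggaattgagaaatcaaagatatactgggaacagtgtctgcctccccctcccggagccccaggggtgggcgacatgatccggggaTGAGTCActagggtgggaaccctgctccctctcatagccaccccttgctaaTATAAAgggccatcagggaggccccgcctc
Tchh: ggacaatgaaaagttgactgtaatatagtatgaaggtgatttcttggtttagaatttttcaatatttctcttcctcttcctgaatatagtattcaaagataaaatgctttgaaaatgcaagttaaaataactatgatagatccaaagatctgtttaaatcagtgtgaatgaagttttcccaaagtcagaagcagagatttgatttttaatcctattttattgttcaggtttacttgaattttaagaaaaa

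The AP-1 match began 48 bases before the start of Lor, 116 bases before that of Ivl and 81 bases before that of Krtdap. In all 3 the TATA match lay closer to the start, at 27, 29 and 30 bases. Of the 22 members with a promoter in the table, Flg among them, 8 held the AP-1 motif in at least 1 window, beside 7.82% of the 27025 genes in the table. The TATA box was found for 8 of the 22, beside 14.3% of all genes. The other motif searched, the E-box CANNTG, was found for 12 of the 22, beside 69.3% of all genes. Among the 22 members, only Lor, Ivl, Krtdap and Flg held both the AP-1 motif and the TATA box, so the pattern shown is not typical of them. The share of all genes with both was not computed. These matches describe letters in a window and were not tested for binding or for a link to the ratios.

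Nearly every barrier gene had more counts in the AEW library, most of them from a control level close to none. A gene was measured when its counts summed to at least 20 over both libraries, which held for 36 of the 38 genes with a row. It was called higher or lower when the ratio of scaled counts was at least 1.5-fold and its exact 95% counting interval excluded 1. By this rule 33 of 36 members were called higher and 0 lower, where 17.3% of all 14854 measured genes were called higher and 14.9% lower. At least 10-fold higher were 24 of the 36, a size that 1.40% of all measured genes reached. The median log2 ratio was 4.18 over the measured members, with 7 of them at a lower bound, and 0.03 over all measured genes. Those 7 had 0 control counts. Under this rule a measured gene with 0 control counts can only be called higher, so such calls are no separate result.

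The members together had 1937 control counts and 18962 AEW counts, a scaled ratio of 5.98 (95% counting interval 5.71 to 6.27). Jup and Itgb4, a pair made by many cell types, supplied 29.8% and 39.2% of the control sum. Without both, the sum was 600 control counts and 16281 AEW counts, a ratio of 16.6 (15.3 to 18.0). The summed ratio therefore rested on 2 genes in the control, and the genes are better read one at a time. In pooled tissue, fewer cells of a type and less RNA per cell cannot be told apart.

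**Figure D1:**
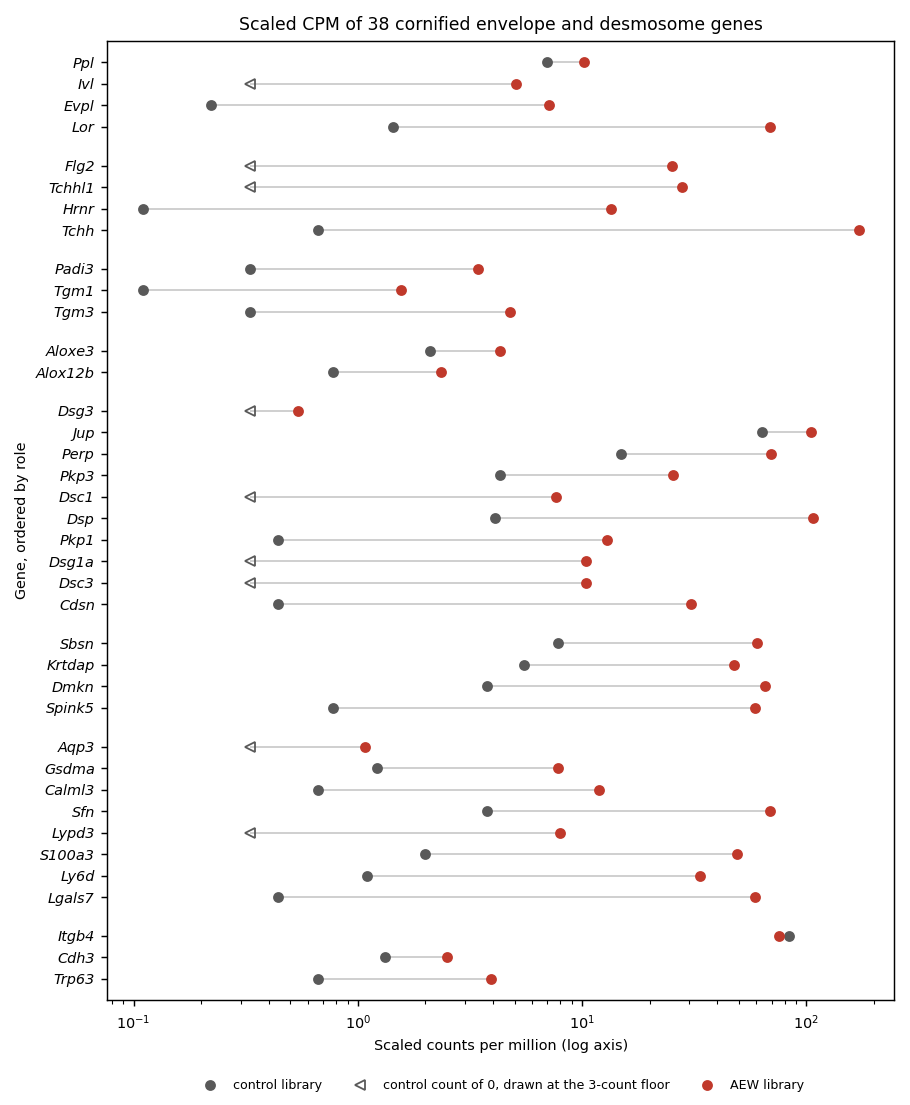
Scaled CPM (log axis) of the 38 genes in the control library (grey) and the AEW library (red), ordered by role, with control counts of 0 drawn as open triangles at the floor of 3 counts. The red point lies to the right for every gene but Itgb4, at 83.9 CPM for control and 75.4 CPM for AEW, and the widest gap is that of Tchh.

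Among structural proteins of the envelope, Lor encodes loricrin, the bulk protein of the mature shell (ENSMUSG00000043165.7, chromosome 3, 92080271 to 92083142, minus strand). Lor had 13 control counts and 1018 AEW counts, a ratio of 47.8 (27.8 to 90.2). Ivl encodes involucrin, the scaffold laid down first, and had 0 and 75 counts, at least 15.3-fold higher. Evpl encodes envoplakin, which joins desmosomes to the growing envelope, and had 2 and 106 counts, a ratio of 32.4 (8.75 to 270.8).

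Ppl, the gene of envoplakin's partner periplakin, was different. It had 63 control counts and 152 AEW counts, a ratio of 1.47 (1.09 to 2.01) that fell just short of 1.5-fold. Evpl and Ppl proteins act as a pair, yet the intervals of their ratios do not overlap in these libraries.

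The filaggrin family, large S100-fused proteins that fill and bundle the keratin network, had the highest median and the highest summed ratio of any role. All 4 measured members were at least 10-fold higher, and together they had 7 control counts and 3523 AEW counts, a ratio of 307.5 (149.1 to 765.3). Tchh, the gene of trichohyalin in the inner root sheath of hair (ENSMUSG00000052415.5, chromosome 3, 93442330 to 93449077, plus strand), had 6 and 2538 counts, a ratio of 258.4 (118.6 to 704.8). It ranked 11 among all 14854 measured genes by ratio. Its neighbour Tchhl1 had 0 and 412 counts, at least 83.9-fold higher.

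The epidermal members of the family showed the same direction. Flg2, the filaggrin-2 gene, had 0 and 374 counts, at least 76.2-fold higher. Hrnr, the gene of hornerin, had 1 and 199 counts, a ratio of 121.6 with a wide interval of 21.6 to 4825.7. These genes carry long internal repeats, and the handling of reads that match several places is not known here.

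Enzymes that modify envelope proteins were higher too, on few counts. Tgm1, the transglutaminase of keratinocyte membranes, had 1 and 23 counts, a ratio of 14.1 (2.28 to 578.8). Tgm3, the transglutaminase of hair and late epidermis, had 3 and 71 counts, a ratio of 14.5 (4.75 to 71.8). Padi3, which converts arginine of trichohyalin and filaggrin to citrulline, had 3 and 51 counts, a ratio of 10.4 (3.36 to 52.02). The counting intervals of all 3 reach below 10-fold.

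The lipoxygenases Alox12b and Aloxe3, which act in sequence on barrier lipids, had the lowest ratios among the enzymes, the interval of Aloxe3 lies below that of Tgm3, and the other intervals overlap those above. Alox12b had 7 and 35 counts, a ratio of 3.05 (1.34 to 8.15). Aloxe3 had 19 and 64 counts, a ratio of 2.06 (1.22 to 3.64). Both calls were lost when the interval had to exclude 1.5-fold, and also when libraries were scaled on pan-neuronal markers, at log2 ratios of 0.88 and 0.31.

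All 9 measured desmosome and corneodesmosome genes were called higher, 6 of them at least 10-fold. The desmosomal cadherins among the members, which span the gap between keratinocytes, were at 0 in the control. Outside the members, the desmosomal cadherin genes Dsg2 and Dsc2 had 6 and 4 control counts. Dsg1a had 0 and 155 counts and Dsc3 likewise 0 and 155, each at least 31.6-fold higher. Dsc1 had 0 and 113 counts, at least 23.0-fold higher. Dsg3, the desmoglein of deep layers, had 0 and 8 counts and was not measured. Dsg1a has close relatives beside it, Dsg1b with 0 and 2 counts and Dsg1c with 0 in both libraries, so its counts are uncertain as those of a single gene.

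Inside the cell, plaque proteins tie the cadherins to keratin. Dsp encodes desmoplakin, the linker to the filaments (ENSMUSG00000054889.10, chromosome 13, 38151294 to 38198577, plus strand), and had 37 and 1592 counts, a ratio of 26.3 (19.0 to 37.5). The plakophilins differed from each other. Pkp1, the plakophilin of upper layers, had 4 and 192 counts, a ratio of 29.3 (11.3 to 108.7), whereas Pkp3 had 39 and 378 counts, a ratio of 5.92 (4.25 to 8.46).

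Perp, a membrane protein of desmosomes in stratified epithelium, had 135 and 1028 counts, a ratio of 4.65 (3.88 to 5.61). Jup encodes plakoglobin, which desmosomes share with the adherens junctions of many tissues. It had 577 and 1563 counts, a ratio of 1.65 (1.503 to 1.82) that turned to a log2 ratio of -0.0067 with pan-neuronal scaling. Cdsn, the gene of corneodesmosin, glues the outermost cells together and had 4 and 454 counts, a ratio of 69.3 (26.9 to 255.6). The 2 ends of this role are thus a junction protein of many tissues and a protein of the horny layer.

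**Figure D2:**
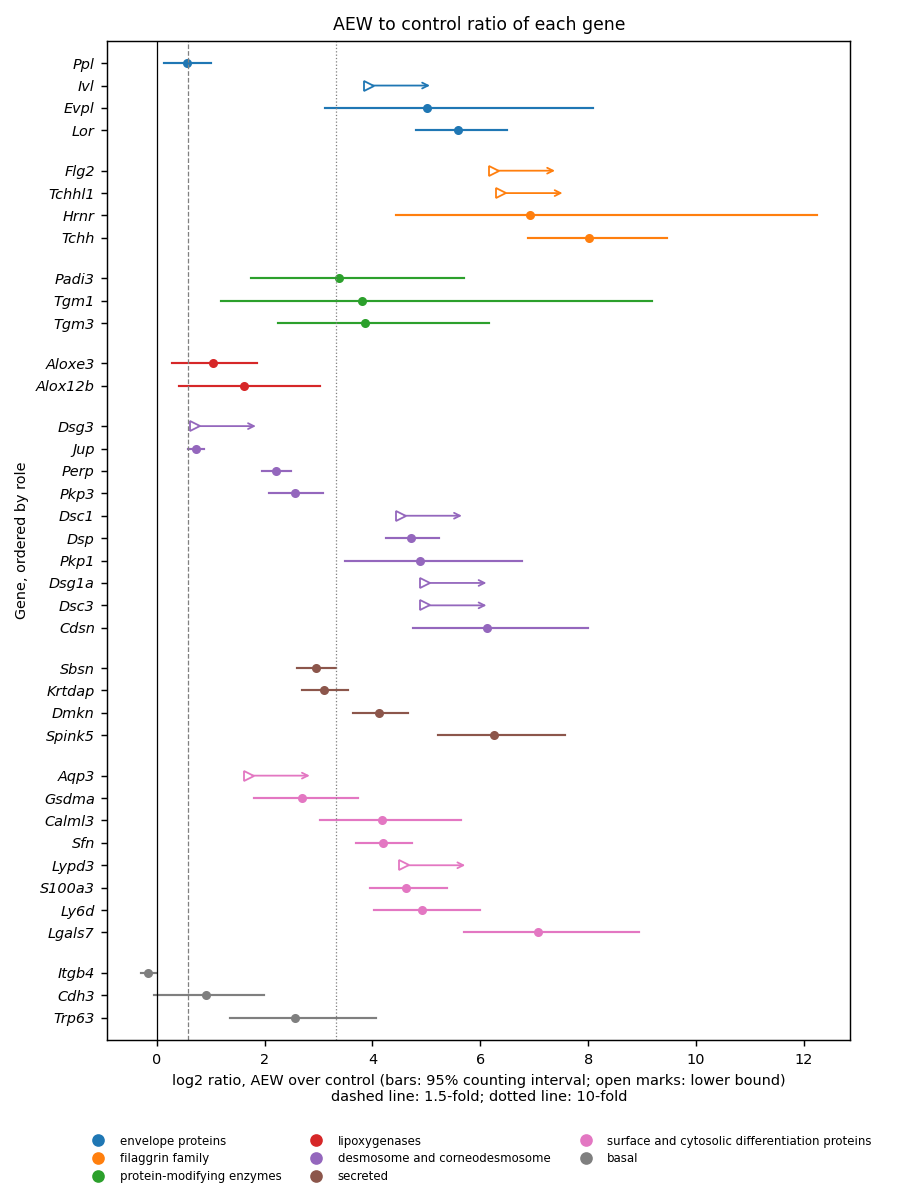
The log2 ratio of AEW over control for each gene (points) with its 95% counting interval (bars), coloured by role, and lower bounds (open triangles with arrows) where the control count was 0. Filaggrin family genes sit at 6.25 or above, while Itgb4, Ppl, Jup, Cdh3 and Aloxe3 lie near the 1.5-fold line or below it, and Jup falls to -0.0067 under pan-neuronal scaling.

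The secreted proteins included epidermal genes that the control library held in some number. Krtdap, Sbsn and Dmkn encode small proteins that suprabasal keratinocytes secrete. Krtdap had 50 and 703 counts, a ratio of 8.59 (6.44 to 11.7). Sbsn had 71 and 896 counts, a ratio of 7.71 (6.05 to 9.96). Dmkn had 34 and 971 counts, a ratio of 17.4 (12.4 to 25.3).

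Spink5 encodes LEKTI, the inhibitor that restrains skin-shedding proteases. It had 7 and 875 counts, a ratio of 76.4 (36.9 to 190.5), and its interval lies above those of Krtdap, Sbsn and Dmkn. The control library therefore held counts of Krtdap, Sbsn and Dmkn, in proportions to Spink5 that differed from those in the AEW library. Which cells made them in either library was not tested.

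All 7 measured surface and cytosolic proteins of differentiating keratinocytes were called higher. Lgals7, the galectin of stratified epithelia, had 4 and 878 counts, a ratio of 134.1 (52.2 to 493.3). Ly6d, a surface marker of keratinocytes, had 10 and 497 counts, a ratio of 30.4 (16.4 to 63.7). S100a3, a calcium-binding protein of the hair cuticle, had 18 and 726 counts, a ratio of 24.6 (15.5 to 41.8). These 3 had almost no control counts and at least 497 in the AEW library.

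Sfn, the 14-3-3 sigma gene of epithelial cells, had 34 and 1020 counts, a ratio of 18.3 (13.0 to 26.6). Calml3, a calmodulin-like protein of epithelia, had 6 and 177 counts, a ratio of 18.0 (8.12 to 49.8). Lypd3, a surface protein of upper keratinocytes, had 0 and 118 counts, at least 24.0-fold higher. Gsdma, the gasdermin of skin, was the lowest of the role at 11 and 116 counts, a ratio of 6.44 (3.47 to 13.3). Aqp3, the water and glycerol channel of basal keratinocytes, had 0 and 16 counts and was not measured.

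The basal role had the lowest median log2 ratio, 0.91, with 1 of 3 genes called higher. Trp63 encodes p63, the transcription factor that defines stratified epithelium, and had 6 and 58 counts, a ratio of 5.91 (2.55 to 16.8). Cdh3, the gene of P-cadherin, had 12 and 37 counts, a ratio of 1.88 with an interval of 0.96 to 3.97 that includes 1. Itgb4, the integrin beta-4 chain that anchors basal cells and is also made by Schwann and perineurial cells (ENSMUSG00000020758.15, chromosome 11, 115974709 to 116008412, plus strand), had 760 and 1118 counts, a ratio of 0.90 (0.82 to 0.99). Itgb4 was the only measured member with a ratio below 1 and was called lower with pan-neuronal scaling, at a log2 ratio of -0.89.

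Regrouped by layer, the summed ratio was highest for the hair follicle members. This order holds for the listed members only. The basal keratins Krt5 and Krt14, which are not members, had log2 ratios of 9.67 and 9.54, on 1 control count each. Tchh, Tchhl1, Padi3 and S100a3 summed to 27 control counts and 3727 AEW counts, a ratio of 84.3 (57.9 to 128.1). Tchh supplied 2538 of those AEW counts, and Padi3 alone had a ratio of 10.4. The 14 granular layer and envelope genes summed to 176 and 5055 counts, a ratio of 17.5 (15.1 to 20.5). The basal layer genes summed to 913 and 2404 counts, a ratio of 1.61 (1.49 to 1.74), and Itgb4 supplied 760 of the 913 control counts. The 8 members that are also made outside stratified epithelium (Dsp, Jup, Perp, Ppl, Evpl, Itgb4, Aqp3 and Sfn) had a ratio of 2.51 (2.37 to 2.65) for their sum, and without them the remaining members had 329 and 12367 counts, a ratio of 23.0 (20.6 to 25.7).

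**Figure D3:**
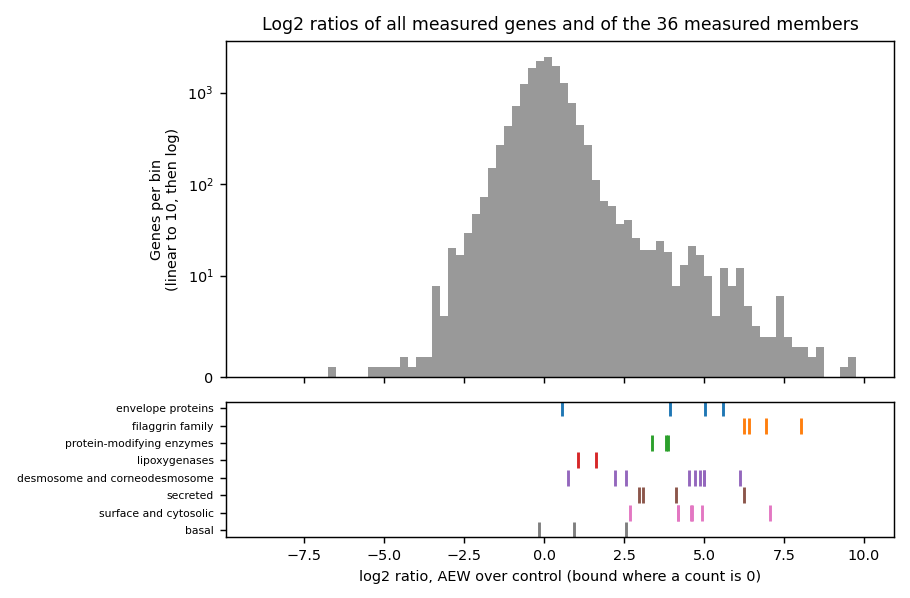
Upper panel, number of measured genes per bin of the log2 ratio of AEW over control (linear to 10 genes, then log). Lower panel, each of the 36 measured members as a tick in its role, with bounds where the control count was 0. The bulk of all genes centres on 0.03, the members' median is 4.18, and the Itgb4 tick at -0.15 is the only one below 0.

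The control detected 29 of the 38 genes and the AEW library 38 of 38. In the control 9 genes were at 0, 5 had 1 to 3 counts, 14 had 4 to 20 counts and 10 had over 20. Those 10 were Ppl, Dsp, Pkp3, Perp, Jup, Krtdap, Sbsn, Dmkn, Sfn and Itgb4. Among the 208 genes of the whole table that were at least 10-fold higher, 24 were members, 25 keratins, 36 keratin-associated proteins and 33 genes of the other barrier, junction and skin lists. The remaining 90 genes were on none of these lists, which does not make them foreign to skin. Some of them lie in the epidermal differentiation complex.

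Members from the same stretch of chromosome were compared with the genes around them. The epidermal differentiation complex holds envelope and S100 genes, and the window from S100a3 to Tchhl1 (chromosome 3, 90560578 to 93471980, GENCODE M21 on mm10) held 7 members with a row, all called higher. Of 28 other measured genes in it, 22 were called higher, 15 of them at least 10-fold, 4 lower and 2 neither. The 4 lower genes, named after their values were seen, were S100a4, S100a8, S100a9 and Sprr1a. S100a8 and S100a9, calprotectin genes of neutrophils, had log2 ratios of -1.65 and -1.76. The window as a whole thus held both directions, and 15 of the 22 higher genes were late envelope genes of the Lce family.

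Sprr1a encodes a small proline-rich envelope protein and is also a known injury-induced gene of sensory neurons. It had 636 control counts and 532 AEW counts, 1.96-fold lower, opposite to Lor and Ivl on either side. Around Dmkn, Sbsn and Krtdap (chromosome 7, 30263756 to 31291097, which includes 500 kb on each side), 5 of 30 other measured genes were called higher, 4 lower and 21 neither. The median log2 ratio of these neighbours was 0.21. The desmosomal cadherins Dsc3, Dsc1, Dsg1a and Dsg3 lie together on chromosome 18 (19960930 to 20547459), where no non-member gene was measured. In the same cluster Dsc2, the desmocollin of simple epithelium and heart, had 4 and 11 counts.

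**Figure D4:**
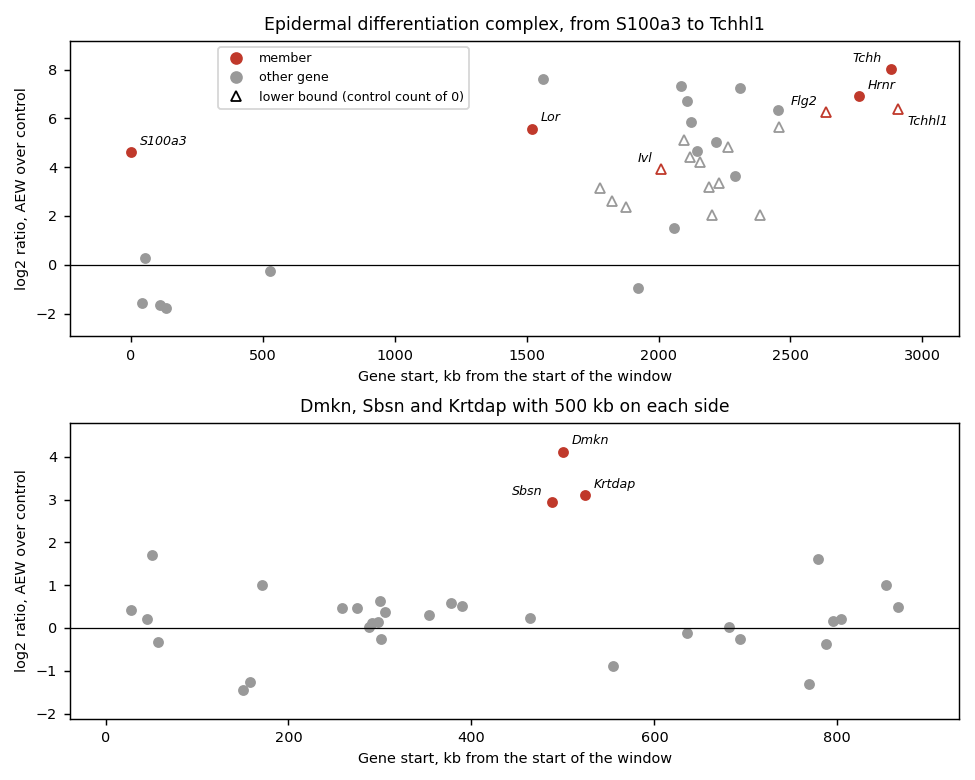
Log2 ratio of AEW over control for measured genes along the epidermal differentiation complex (upper panel) and around Dmkn, Sbsn and Krtdap (lower panel), by distance of the gene start from the window start in kb. Members are red, other genes grey, and triangles are lower bounds. In the lower panel the 3 members stand at 2.95 to 4.12 among neighbours whose median is 0.21.

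Most other barrier genes were called higher as well, and fewer of the other junction genes were. Of 45 measured cornified envelope and barrier genes outside the member list, 38 were called higher, 1 lower and 6 neither. For 18 of the 45 the control count was 0, so no other call was possible. Their median log2 ratio was 3.20. Lce1m, a late envelope gene, had 0 and 245 counts, at least 49.9-fold higher. Of 10 measured desmosome and adherens junction genes outside the list, 3 were higher, 1 lower and 6 neither. The 3 higher were Dsg2 (6 and 47 counts), Pvrl4 (43 and 251) and Pvrl1 (76 and 362), and the lower was Pkp2 (24 and 20). The median here was -0.20. Ctnnb1, the beta-catenin gene used by adherens junctions everywhere, had 6998 and 8914 counts, a ratio of 0.78 (0.75 to 0.80).

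Genes of the hemidesmosome, the anchor of basal cells, were divided. Of 8 measured genes, 2 were higher and 6 neither. Col17a1 and Lamb3, which are strongly tied to epithelium, had 0 and 52 counts (at least 10.6-fold higher) and 1 and 33 counts (20.2-fold, 3.38 to 820.1). Itga6, the partner of Itgb4, had 1428 and 2198 counts, a ratio of 0.94 (0.88 to 1.01). Of 14 epidermal transcription factors 10 were higher and 4 neither, with a median of 1.44, led by Tfap2c at 2 and 107 counts.

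Keratin and hair shaft lists were called higher throughout, whereas most measured markers of sebaceous gland, pigment cells and fibroblasts were not. Epidermal keratins were called higher in 10 of 10 measured genes, from 16.01 to 630.5 CPM summed, and hair follicle keratins in 18 of 18, from 10.1 to 834.5 CPM. Krt5 and Krt14, the basal keratin pair, had 1 control count each, against 1336 and 1218 in the AEW library. Keratin-associated proteins of the hair shaft went from 3.98 to 1074.9 CPM, with 44 of 44 called higher. Of these 44, 33 had 0 control counts, as had 6 of the 18 hair follicle keratins and 1 of the 10 epidermal keratins. Their calls were fixed once they were measured.

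Sebaceous gland markers were higher in 4 of 10 and neither in 6, from 690.3 to 773.5 CPM. The 4 higher were Awat1, Elovl3 (4 and 305 counts), Scd3 (6 and 138) and Dgat2l6 (0 and 20), with at most 6 control counts. The 6 others had 183 or more control counts, and Scd1 weighed most on the sum at 3694 and 6626 counts. In that list the wax synthase gene Awat1 had 0 and 224 counts, and Mc5r was at 0 in both libraries. Pigment cell markers were higher in 1 of 6, from 97.6 to 111.1 CPM, the one being Dct, which had 0 and 287 counts. The 5 others were called neither and had 23 or more control counts. Of 5 Langerhans and skin T cell markers with a row, 1 was measured, Ctla2a, which was called lower at 572 and 405 counts. The others were too low to be measured and went in both directions. Among them Cd207, the Langerhans cell gene, had 10 control counts and 0 AEW counts. Of 12 fibroblast markers of dermis and other tissues 1 was higher, 4 were lower and 7 neither, and none was at 0. Their sum went from 9077.0 to 5496.4 CPM. The higher one, Thy1, is also counted among the pan-neuronal markers.

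Of 8 measured markers of internal epithelia 4 were higher, 3 lower and 1 neither, and their sum went from 18.1 to 26.9 CPM. Krt13, Lgals4, Tff3 and Upk3a were at 0 in both libraries. Epcam, also made in hair follicles, had 1 and 140 counts, whereas Upk1b had 35 and 19. Pan-neuronal markers were higher in 12 of 22 and lower in 0, from 11366.8 to 17558.8 CPM, and skeletal muscle markers were lower in 10 of 12, from 2117.6 to 890.1 CPM. The part of skin or hair carried into the AEW sample at dissection in the members' ratios was not tested, and with 1 pool per group the treatment, the dissection and the library cannot be told apart.

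**Figure D5:**
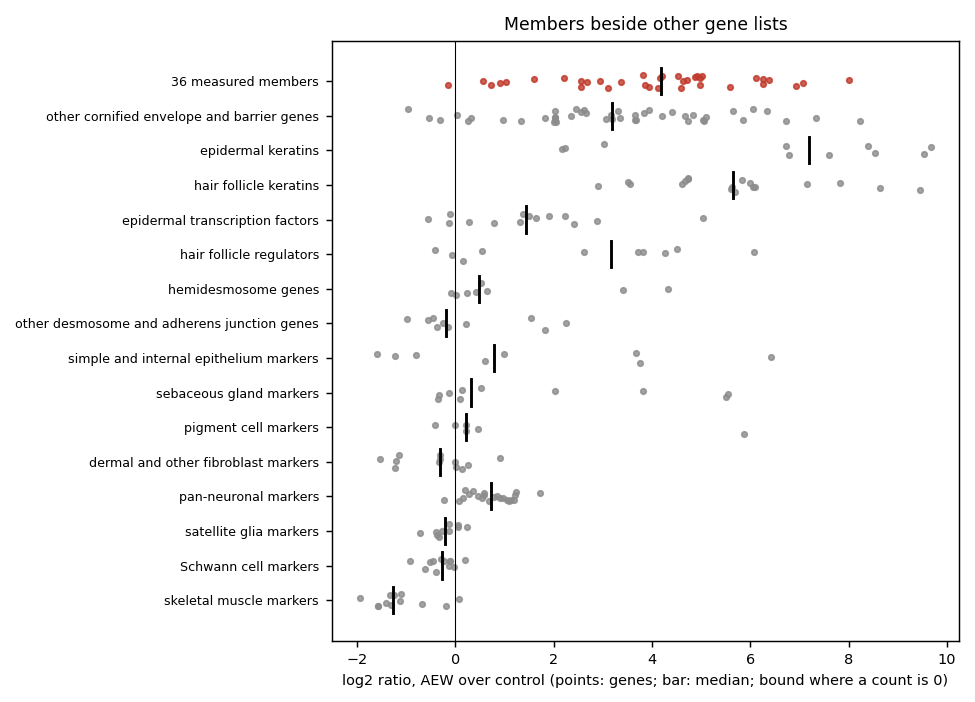
Log2 ratio of AEW over control of each measured gene (points) in the member list and 15 other lists, with the median as a bar and bounds where a count was 0. The members (median 4.18) lie between the other barrier genes (3.20) and the keratin lists (7.20 and 5.66), while the fibroblast, satellite glia and Schwann cell lists lie near 0.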

How the data were processed

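The authors deposited raw read counts in whole numbers, with rows labelled by gene symbol. Per the labels' protocols, libraries were made from 500 ng of Trizol-extracted total RNA with a Lexogen QuantSeq kit, and mm10, Bowtie2 and bedtools are named, per the submitters' processing notes. Versions, annotation and strand use were not given in the sources used here. From the counts, TMM library sizes were computed with edgeR 4.0.16 in R 4.3.3 (factors 0.970 for control, 1.03 for AEW). Ratios carry exact Clopper-Pearson intervals at 95%, which cover counting error only, since reads are not independent molecules. A ratio against 0 uses a floor of 3 counts in that library. Symbols on more than 1 row (79 rows) stayed in totals and left the calls. Members and lists were chosen with earlier results of these data known. From other lists, up to 4 genes each could be named, by the 2 highest lower and 2 lowest upper interval bounds. Genes named beyond this (S100a genes, Dsg1b, Dsg1c, Dsg2, Dsc2, Pkp2, Krt1, Scd1, Scd3, Dgat2l6, Cd207, Mc5r, Krt13, Lgals4, Tff3 and Upk3a) were chosen after their values were seen. Of 264 listed symbols 260 matched a row, 2 through older symbols. DESeq2 1.42.0 size factors, total counts, upper quartile and pan-neuronal scaling, other count filters, a stricter call and totals without skin genes and Rn45s were tried.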

Additional observations from a re-analysis of the deposited data

How the results depend on the processing

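No paired analysis was possible because each group has 1 library. The members called higher numbered 26 to 35 over 8 alternatives, with 28 to 38 members measured, and those at least 10-fold higher 20 to 24 over the 7 alternatives that can change them. With pan-neuronal scaling the median over all measured genes was -0.70, the members had a median log2 ratio of 3.45, a summed ratio of 3.60 and 1 call lower (Itgb4), and Jup stood at -0.0067. That scaling gave 605 genes higher and 8256 lower, where the main scaling gave 2577 and 2220. Total counts gave a summed ratio of 6.36, and calls for Ppl and Cdh3. A summed count of at least 100 gave a members' median of 4.67, with fewer genes measured. An interval that excludes 1.5-fold left 1327 genes higher and 1071 lower. Depth limits Tgm1, Tgm3, Padi3, Hrnr and Evpl, which had 1 to 3 control counts.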

Other observations

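Within each library, members were set against epidermal keratins. In the control Krtdap had 50 counts and Krt5 had 1, whereas in the AEW library Krtdap had 703 and Krt5 had 1336, so the Krtdap to Krt5 quotient was 50 for control and 0.53 for AEW. For Sbsn the quotient to Krt5 was 71.0 and 0.67, and for Dsp 37.0 and 1.19. Against Krt10, the keratin of suprabasal cells with 127 and 1703 counts, the quotient of Krtdap was 0.39 and 0.41. Krt1, also an epidermal keratin, had 2 and 363 counts, so Krtdap was not in steady proportion to it. The Lor to Krt10 quotient was 0.10 for control and 0.60 for AEW. The quotients on Krt5 rest on 1 control count. These pairs were chosen after the values were seen, and no explanation was tested.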
